A study of Mus musculus with 7 samples.

Results

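Of 90879 regions of nuclease-accessible chromatin on chromosomes 1 to 19 of mouse liver, 9009 (9.91%) were narrow promoter regions in which Benzonase, Cyanase and DNase I each produced at least 1 hotspot. A hotspot is a stretch of genome where sequenced cleavage ends cluster above background. Hotspots of the 3 lists that overlapped by at least 1 bp were merged into regions, and the members were chosen by 3 measured values: hotspots of all 3 nucleases, a merged width under 2000 bp, and an overlap with the 1 kb on either side of a transcription start site (TSS) of a protein-coding gene. Hotspots of all 3 nucleases were present in 36943 regions, of which 10887 reached a TSS window, and 1878 of these were 2000 bp or wider and were left out. The members made up 56.3% of the 15994 regions of any list at a TSS window. These counts follow from the rule and are given as a description.

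All samples came from the liver of male C57BL/6 mice of 8 weeks. Benzonase and Cyanase were each applied at 0.25, 1 and 4 U to pulverized frozen liver without purification of nuclei, an approach named TACh, and DNase I was applied to nuclei purified from fresh liver. By the labels there was 1 sample at each dose of Benzonase and of Cyanase, while DNase I had 1 sample, although its track line names 2 pooled libraries. Each nuclease is represented by 1 list called on pooled tags, with 59040 Benzonase, 55904 Cyanase and 69897 DNase I hotspots on these chromosomes. The lists hold positions and no tag counts, so the depth behind a hotspot is unknown, its strength cannot be read, and there is no spread between samples. The nuclease, the state of the tissue and the depth change together and cannot be told apart. Intervals given with shares are 95% Wilson intervals for counting error alone, and no test between samples was possible.

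A promoter is the stretch around a TSS where transcription factors and RNA polymerase II assemble, and at genes in use it is commonly depleted of nucleosomes, which leaves its DNA exposed to nucleases. Many mammalian promoters lie in CpG islands, stretches rich in G, C and the dinucleotide CpG, and these are typical of genes needed in most cells. Promoters poor in CpG are typical of genes used in a few tissues, such as those of the plasma proteins and metabolic enzymes of the hepatocyte, the main cell type of the liver.

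The genes at the members included those of hepatocytes. Of 7 hepatocyte markers, 6 had a member region (Alb, Ttr, Tat, Cps1, Hnf4a and Cyp2e1), and the seventh, Apoa1, lay in a region of all 3 nucleases that exceeded the width limit. Each cell type was checked by a few markers, and longer lists are given further on. None of 4 Kupffer cell and leukocyte markers (Clec4f, Emr1, Csf1r and Ptprc), 3 stellate cell markers (Lrat, Des and Pdgfrb) or 4 bile duct markers (Krt19, Krt7, Epcam and Sox9) had one, although Sox9, like Apoa1, lay in a wide region of all 3 nucleases. Of 4 endothelial markers, Kdr had one and Stab2, Pecam1 and Cdh5 did not. By comparison, 41.9% of all protein-coding genes had a member region. Among genes whose most upstream TSS was low in CpG, a class defined below, 9.47% had one at that TSS. Beside these shares, the lack of a member region at 3 or 4 markers does not set a cell type apart. The tissue was not sorted, and in bulk tissue fewer cells of a type and weaker cleavage per cell cannot be told apart.

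The DNA just upstream of the TSS is shown for 7 members to set the promoters of genes used in every cell beside those of hepatocyte genes. Each line holds the 150 bases before the TSS, read from mm9 on the strand of the gene, in a part of the member region without an annotated exon. Capitals mark matches to any of 14 short motifs, whose letters are given with the motif counts further on.
Rpl3 (chr15:79913837-79913986, minus strand): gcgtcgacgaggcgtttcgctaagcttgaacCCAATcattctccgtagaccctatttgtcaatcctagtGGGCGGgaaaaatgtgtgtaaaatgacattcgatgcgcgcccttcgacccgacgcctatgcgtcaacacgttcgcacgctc
Psma1 (chr7:121419633-121419782, minus strand): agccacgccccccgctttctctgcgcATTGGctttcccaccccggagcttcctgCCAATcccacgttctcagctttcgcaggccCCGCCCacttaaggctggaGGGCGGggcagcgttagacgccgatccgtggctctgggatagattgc
Ndufa3 (chr7:3568825-3568974, plus strand): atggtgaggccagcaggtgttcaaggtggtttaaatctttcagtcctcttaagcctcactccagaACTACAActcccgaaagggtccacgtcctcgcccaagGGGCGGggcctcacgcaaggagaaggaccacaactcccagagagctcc
Alb (chr5:90889765-90889914, plus strand): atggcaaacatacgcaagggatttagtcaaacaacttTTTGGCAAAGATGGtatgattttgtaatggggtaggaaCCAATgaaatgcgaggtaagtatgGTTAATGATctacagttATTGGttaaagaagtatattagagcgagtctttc
Apoa2 (chr1:173155035-173155184, plus strand): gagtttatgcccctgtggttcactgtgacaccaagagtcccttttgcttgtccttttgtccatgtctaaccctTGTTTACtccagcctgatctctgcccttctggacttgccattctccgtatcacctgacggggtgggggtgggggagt
Tat (chr8:112514187-112514336, plus strand): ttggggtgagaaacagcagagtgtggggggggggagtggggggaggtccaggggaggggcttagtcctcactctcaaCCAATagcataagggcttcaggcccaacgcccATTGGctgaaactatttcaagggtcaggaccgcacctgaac
Hnf4a (chr2:163332394-163332543, plus strand): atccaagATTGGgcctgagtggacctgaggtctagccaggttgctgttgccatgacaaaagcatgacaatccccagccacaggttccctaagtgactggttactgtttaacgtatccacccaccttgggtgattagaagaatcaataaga

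Psma1, a subunit of the proteasome, which degrades proteins, held 4 matches in this stretch, a pair each of the GC box and the CCAAT box, and its 150 bases were 64.7% G or C. Rpl3, a protein of the large ribosomal subunit, held a GC box and a CCAAT box, and Ndufa3, a subunit of complex I of the respiratory chain, held a GC box and a match to the site of Zfp143. Alb, the gene of serum albumin, held no GC box and was 36% G or C. Its matches were a site of C/EBP factors that shares 1 base with a match to the YY1 site, a site of HNF1 and 2 CCAAT boxes. Apoa2, an apolipoprotein of high density lipoprotein, held a FOXA site. Tat, which encodes the enzyme that begins tyrosine breakdown, held 2 CCAAT boxes, and Hnf4a, a nuclear receptor of hepatocytes, held 1. The GC content of these stretches was 53.3% at Rpl3 and at Apoa2, 56.7% at Ndufa3, 58.7% at Tat and 48% at Hnf4a. It therefore did not divide the printed hepatocyte promoters from the others. Promoters of 4 more members were read and are not shown, and they do not all follow these examples. Rpl4, another ribosomal protein gene, was 38% G or C and held no match, Apoa4 and Nr1h4 held none either, and Tdo2 held a CCAAT box.

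The member region of Psma1 was 1391 bp wide, with 1349 bp under Benzonase, 1274 bp under Cyanase and 1133 bp under DNase I. At Alb the region was 895 bp wide, and the nucleases covered 849, 810 and 892 bp in the same order, so that DNase I covered the most at Alb and the least at Psma1. The Tat region, 970 bp wide, was covered over its whole width by DNase I, over 871 bp by Benzonase and over 877 bp by Cyanase. At Marveld3, a promoter that the study set beside Tat, Benzonase covered 708 bp and Cyanase 615 bp of a region of 61.4% GC, and without a DNase I hotspot it was not a member.

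A typical member was a single block of accessible chromatin with the TSS inside it. Exactly 1 hotspot of each list was present in 8112 of the 9009 members. The median width was 1229 bp (quartiles 973 and 1523 bp), and the bases under all 3 lists at once, the core, had a median length of 761 bp, or 67.7% of the region. In 17 members (0.189%) no base was shared by all 3 lists. The TSS nearest to the centre of the region lay inside hotspots of all 3 nucleases in 84.2% of the members (interval 83.4 to 84.9).

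Benzonase and Cyanase marked nearly the same bases. Their hotspots shared a median of 91.9% of the bases that either of them covered in a member, against 70.9% for Benzonase and DNase I and 73.7% for Cyanase and DNase I. In the 25400 regions of all 3 nucleases that were under 2000 bp and away from TSS windows, the same medians were 89.9%, 82.2% and 81.3%.

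DNase I hotspots were the shortest of the 3 at members. The covered length had a median of 1163 bp for Benzonase (quartiles 916 and 1442 bp), 1077 bp for Cyanase (831 and 1357 bp) and 816 bp for DNase I (667 and 1086 bp). Over the complete lists, the median hotspot widths lay close together, at 654, 643 and 651 bp. Benzonase covered more bases than each of the others in 66.0% of the members, Cyanase in 1530 members and DNase I in 16.6% of them (interval 15.8 to 17.4). Away from TSS windows DNase I covered the most bases in 53.0% of the regions (interval 52.4 to 53.6) and Benzonase in 31.2%. The median difference, DNase I minus Benzonase, was -254 bp at members and 28 bp away from TSS windows. How far a hotspot extends can move with sequencing depth, and the part of depth in these differences was not tested.

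The shortfall of DNase I lay mostly downstream of the TSS. On the upstream side the hotspots began at a median of 532 bp (Benzonase), 501 bp (Cyanase) and 467 bp (DNase I) before the TSS. On the downstream side they ended at 638 bp, 587 bp and 330 bp after it. Benzonase reached further than DNase I by a median of 39 bp upstream and 168 bp downstream, and it ended further downstream in 80.0% of the members. The upstream edges of all 3 nucleases therefore lay close together, while the downstream edge of DNase I stood apart from those of the other nucleases.

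**Figure D1:**
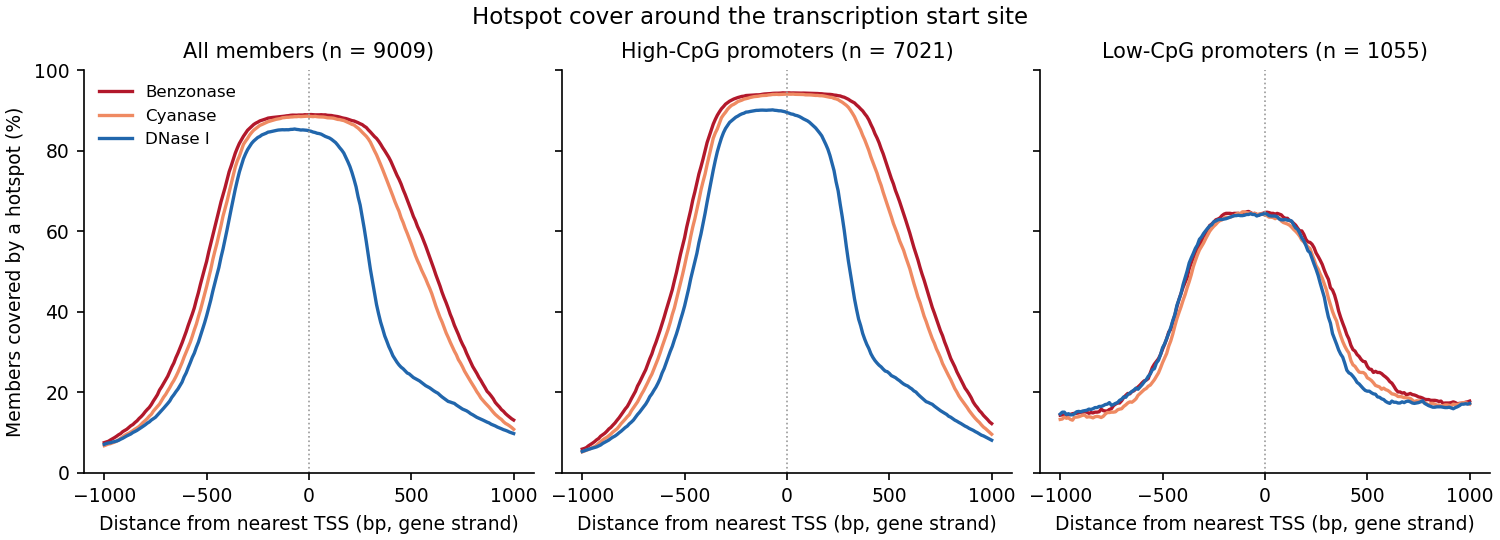
Share of members covered by a hotspot of each nuclease (vertical axis, percent) at each distance from the nearest TSS (horizontal axis, bp, positive in the direction of transcription), for all 9009 members, for the 7021 at high-CpG promoters and for the 1055 at low-CpG promoters. At 500 bp downstream, 65.1% of all members were under Benzonase, 56.8% under Cyanase and 24.1% under DNase I, while the curves of the low-CpG promoters ran close together.

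At least 50% of the members were covered by Benzonase from 514 bp upstream to 614 bp downstream of the TSS, and by Cyanase from 482 to 553 bp. For DNase I this stretch ran from 445 bp upstream to 302 bp downstream. Downstream, the ends of the DNase I hotspots lay nearer to the TSS. There, 37.7% of the members had their last DNase I base at 200 bp or more and under 350 bp after the TSS (interval 36.7 to 38.7), against 6.57% for Benzonase and 10.6% for Cyanase. The fullest 50 bp bin of DNase I downstream edges was 250 to 299 bp, with 15.6% of the members, whereas those of Benzonase and Cyanase were both 600 to 649 bp, with 7.60% and 7.33%. The quartiles of the downstream edge were 244 and 613 bp for DNase I and 457 and 838 bp for Benzonase, so their spreads were of like size. At 500 bp or more after the TSS lay 30.4% of the DNase I edges, 69.3% of the Benzonase edges and 61.4% of the Cyanase edges.

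**Figure D2:**
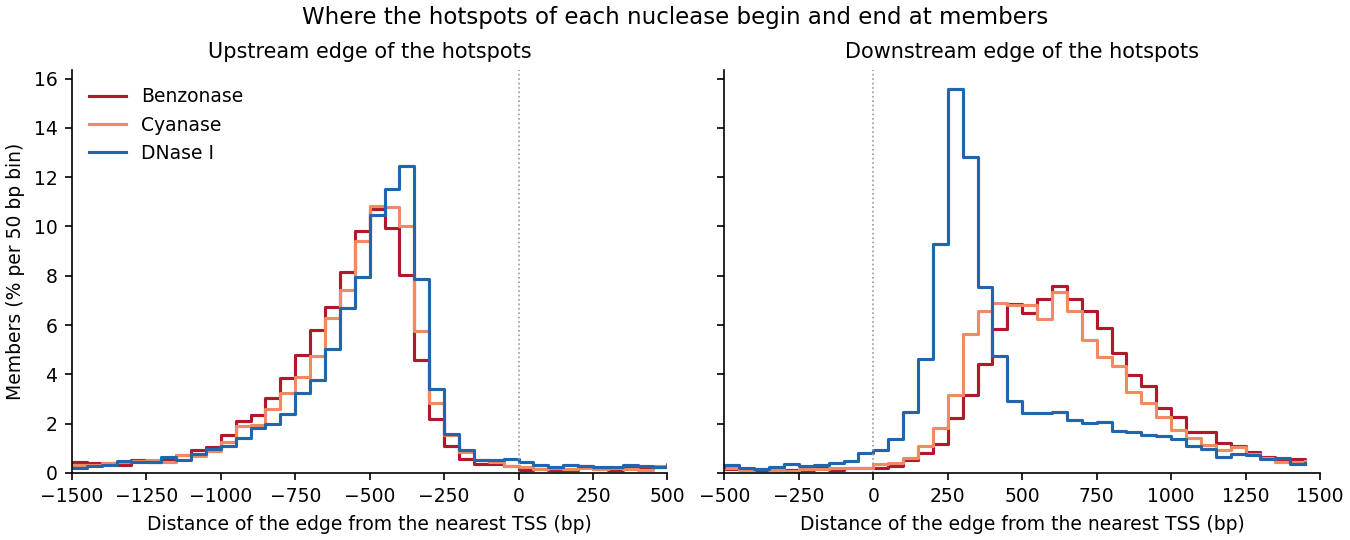
Distribution of the outermost hotspot edges of each nuclease at the 9009 members, in 50 bp bins (vertical axis, percent of members per bin; horizontal axis, distance from the nearest TSS in bp along the gene). The upstream edges overlap, while the downstream edge of DNase I peaks at 250 to 299 bp and those of Benzonase and Cyanase spread around 600 bp.

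Within members, the bases that Benzonase and Cyanase covered and DNase I did not lay for 75.2% downstream of the TSS. By the annotation, 59.4% of these bases were in introns, 26.2% in exons and 14.3% outside genes. Of the bases under all 3 lists, 32.5% were in introns, 32.2% in exons and 35.3% outside genes. The bases under DNase I alone were 54.6% intronic and 8.40% exonic.

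The base composition of these stretches was not that of the core. In 6016 members at least 100 bp were under Benzonase and Cyanase without DNase I, and these bases had a mean GC content of 57.1% ± 7.92 (SD over members), against 60.5% ± 5.90 in the core of the same members. The stretch was richer in GC than the core in 32.7% of them. In 1350 members at least 100 bp were under DNase I alone, with a mean of 41.5% ± 6.70 against 53.1% ± 7.57 in their cores, and the stretch was the richer in 10.6%. Both kinds of stretch were thus poorer in GC than the core, with a mean difference of -11.7 percentage points for DNase I and -3.46 for the other nucleases.

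Members were rich in GC. Their mean GC content was 55.9% ± 6.20 (SD over regions), and it exceeded that of their own 5 kb flanks in 93.9% of the members, by a mean of 10.8 percentage points. Promoter regions with Benzonase and Cyanase hotspots and no DNase I hotspot (2327 under 2000 bp) averaged 62.3%, those with DNase I hotspots alone (977) averaged 43.8%, and regions of all 3 nucleases away from TSS windows averaged 47.3%. The members thus lay between the promoter regions that DNase I did not mark and those that it alone marked.

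Promoters were also sorted by their CpG content, from the sequence within 500 bp of the TSS. A high-CpG promoter had a 500 bp window with at least 55% GC and a ratio of observed to expected CpG of at least 0.6, a low-CpG promoter had no window with a ratio of at least 0.4, and the rest were intermediate. Of the members 77.9% were at high-CpG promoters (interval 77.1 to 78.8), 10.4% at intermediate ones and 11.7% at low-CpG ones. The promoter regions without DNase I hotspots had nearly the same split, with 76.0% high and 280 of 2327 low, and those of DNase I alone had 36.3% high and 42.2% low. The nearest TSS was inside the region in 89.6% of the members, in 75.6% of the regions without DNase I and in 23.7% of those of DNase I alone. The median widths of these regions were 1229, 790 and 553 bp in the same order. A wider region can more easily hold a TSS, and the part of width in these shares was not tested.

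**Figure D3:**
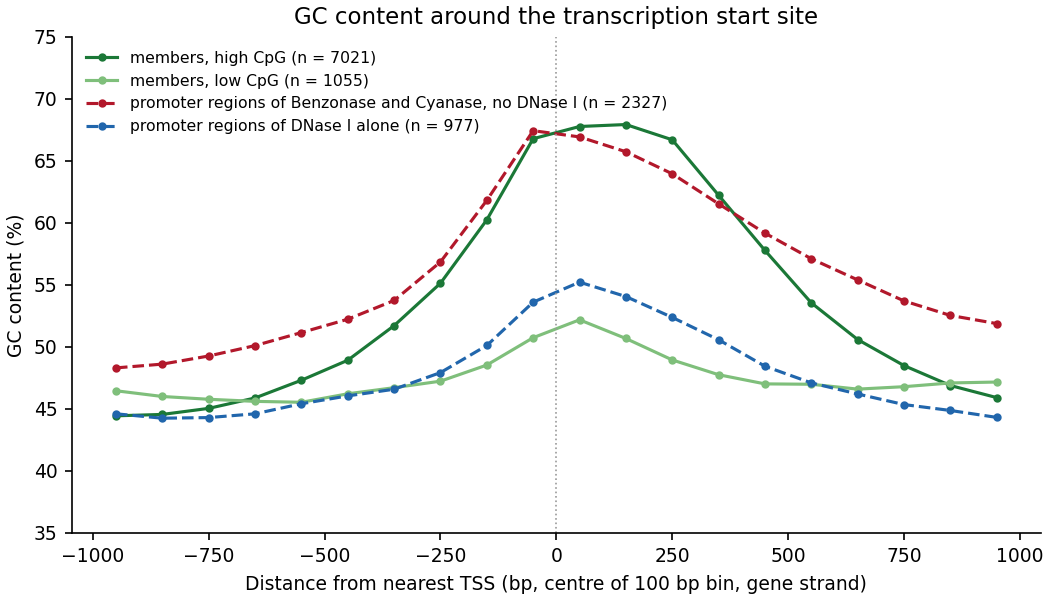
GC content (vertical axis, percent) in 100 bp bins around the nearest TSS (horizontal axis, bp along the gene) for members at high-CpG and low-CpG promoters and for promoter regions marked by Benzonase and Cyanase without DNase I or by DNase I alone. In high-CpG members the 500 bp after the TSS held 64.5% G or C and the 500 bp before it 56.6%, while in low-CpG members the values were 49.3% and 47.9%.

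High-CpG members were wider, with a median of 1294 bp against 986 bp in the intermediate class and 921 bp in the low class. From the high to the low class the median cover of Benzonase fell from 1236 to 816 bp and that of Cyanase from 1144 to 778 bp, while that of DNase I was 830 bp in the high class, 759 bp in the intermediate class and 782 bp in the low class. DNase I covered the most bases in 10.9% of the high-CpG members (interval 10.2 to 11.6), in 31.7% of the intermediate ones and in 41.1% of the low-CpG ones (interval 38.2 to 44.1). The median downstream edge of DNase I was at 330 bp in the high class and at 330 bp in the low class. Its quartiles were 253 and 600 bp in the high class and 185.5 and 747 bp in the low class, so the low class was more spread. For Benzonase the median of the same edge was at 668 bp in the high class and 390 bp in the low class. The nearest TSS lay inside hotspots of all 3 nucleases in 89.3% of the high-CpG members. That share was 71.4% in the intermediate class and 61.4% in the low class.

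The GC content of the whole region gave a steeper order. When the members were cut into 4 groups of nearly equal size by GC content, the group with the lowest (up to 52.3%) had medians of 867 bp for Benzonase, 807 bp for Cyanase and 834 bp for DNase I. In the group with the highest GC content (60.1% and more), they were 1396, 1295 and 749 bp. The share of members in which DNase I covered the most bases was 46.3%, 13.9%, 5.51% and 0.622% from the lowest group to the highest. Across the 9009 members the log2 ratio of DNase I cover to the mean of the other nucleases had a Spearman correlation of -0.66 and a Pearson correlation of -0.65 with GC content. The points share the same 3 lists and their depths, and GC content itself moves with width and CpG class. GC content was also measured over the merged region, whose ends are set by the same hotspots. It is thus not independent of the cover of each nuclease, in these correlations or in the 4 groups. These values are therefore a description.

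**Figure D4:**
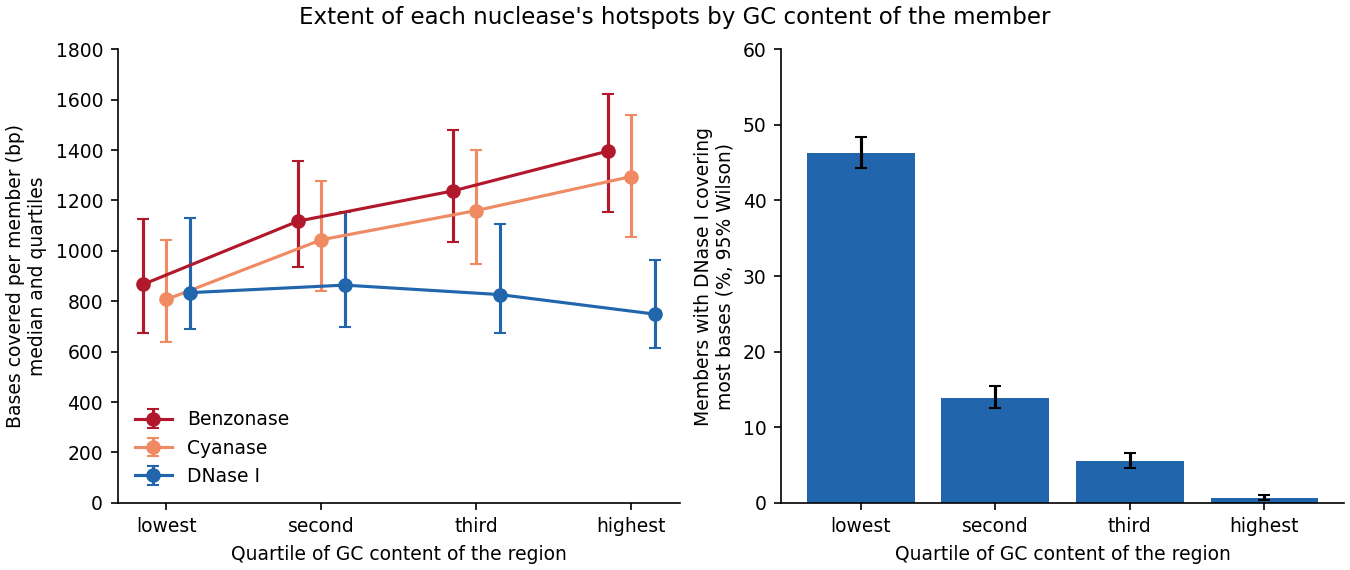
Left, bases covered by each nuclease per member (bp, median with the lower and upper quartile) for members cut into 4 groups by GC content. Right, percent of members in which DNase I covered more bases than either of the other nucleases (bars, with 95% Wilson intervals), which was 46.3% in the lowest group and 0.622% in the highest.

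The extremes of GC content show the same contrast in individual genes. Sult1d1, a sulfotransferase, had the member region of lowest GC content (30.8%), with 616 bp under Benzonase, 696 bp under Cyanase and 752 bp under DNase I. Pmepa1 had the highest (74.4%), with 796, 754 and 517 bp. At Med13l, a subunit of the Mediator complex that links factors to RNA polymerase II, a region of 73.3% GC had 1746 bp under Benzonase and 305 bp under DNase I. These 3 regions were picked for their GC content, after the values were seen.

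A member region lay within 1 kb of a TSS of 8980 of the 21410 protein-coding genes, which is the background for the gene lists below (41.9%). Counting regions of any width, all 3 nucleases were present at 50.5% of the genes, and no hotspot of any list was present at 36.1%. Among genes whose most upstream TSS was high in CpG, 60.3% had a member region at that TSS (interval 59.5 to 61.2) and 9.08% had no hotspot. Among low-CpG genes, 9.47% had a member region (interval 8.78 to 10.2) and 81.1% had no hotspot. By chromosome the share of genes with a member region ran from 31.9% on chromosome 14 to 48.7% on chromosome 8.

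Genes of basic cell functions were nearly all at members. Member regions were present at 69 of 73 cytosolic ribosomal protein genes (94.5%), beside the background of 41.9%, and the 4 others (Rpl7, Rpl36, Rpl37 and Rps21) were in regions of all 3 nucleases that exceeded the width limit. The same held for 30 of 31 proteasome subunits, the exception being Psmd13, for 18 of 20 aminoacyl-tRNA synthetases, which charge tRNAs with amino acids, and for 38 of 42 genes of RNA polymerase II and its general factors. In each of these 4 lists every remaining gene was in a wide region. Of the nuclear-encoded respiratory chain genes, 57 of 61 were at members, 3 (Sdhb, Uqcrq and Uqcrh) were in wide regions, and Ndufc2 had DNase I and 1 other nuclease. In these 5 lists at least 90% of the genes had a high-CpG promoter, a class in which 60.3% of all genes had a member region at the most upstream TSS. Among the high-CpG genes of the lists, in the order given, 64 of 68, 29 of 30, 16 of 18, 35 of 39 and 55 of 60 had one there.

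The cell cycle genes were marked as fully, with 31 of 34 at members and Ccne2, Mcm7 and Birc5 in wide regions. Of the 33 that were high in CpG, 30 had a member region at the most upstream TSS, beside 60.3% of all high-CpG genes. At Mki67, which encodes a nuclear protein of dividing cells, Benzonase covered 1295 bp, Cyanase 1269 bp and DNase I 609 bp. At Top2a, a topoisomerase that untangles DNA in division, they covered 791, 728 and 777 bp. Presence in the lists does not give the level of transcription, and RNA was not analysed here.

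**Figure D5:**
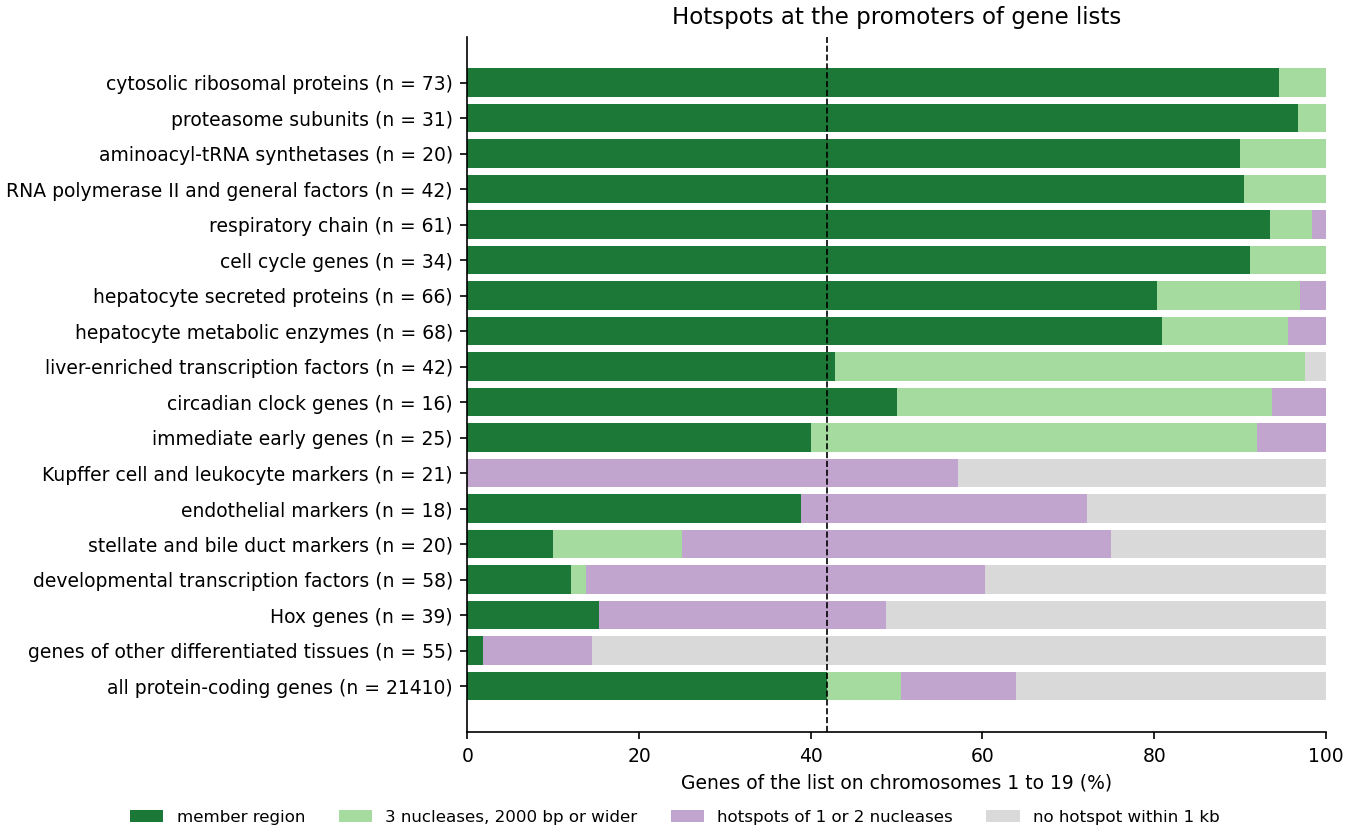
Percent of the genes of 17 lists (horizontal axis) with a member region, with a region of all 3 nucleases of 2000 bp or more, with hotspots of 1 or 2 nucleases, or with no hotspot within 1 kb of a TSS. The bottom bar and the dashed line give all 21410 protein-coding genes, 41.9% of which had a member region.

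Hepatocyte genes were at members in shares above the background of 41.9% and below those of the basic cell functions, and most of their promoters were low in CpG. Of 66 genes of plasma proteins made by hepatocytes, 53 were at members (80.3%, interval 69.2 to 88.1), and of 68 metabolic enzymes and transporters 55 were (80.9%, interval 70.0 to 88.5). Wide regions of all 3 nucleases held 11 of the first list, among them Apoa1, Apob, F2 and Plg, and 10 of the second, among them Fah, Glul and Cpt1a. Outside both kinds of region were C5 and Fgf21 of the first list, and Baat, Cyp2d9 and Cyp4a14 of the second. Considering only low-CpG genes, of which 9.47% had a member region over the genome, 39 of 51 plasma protein genes (76.5%) and 38 of 44 enzyme genes (86.4%) had one.

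The hotspots at these genes were near to equal in extent. At the 53 plasma protein genes the median cover was 1140 bp for Benzonase, 1013 bp for Cyanase and 975 bp for DNase I, and at the 55 enzyme genes it was 1002, 973 and 970 bp. DNase I covered the most bases at 23 and 28 of these genes (43.4% and 50.9%) and the fewest at 21 and 21. Of their regions 39 and 38 were low in CpG, a class in which DNase I covered the most in 41.1% of all members. At the 69 ribosomal protein genes the medians were 1181, 1050 and 803 bp, and DNase I covered the most at 4. Of these regions 67 were high in CpG, a class in which DNase I covered the most in 10.9%. The mean GC content of the regions of the 3 lists was 48.4%, 47.6% and 56.7% in the same order. The parts of GC content and CpG class in the difference between the lists were not tested.

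Individual hepatocyte genes show the range. Cyp7a1, the rate-limiting enzyme of bile acid synthesis, had 695 bp under Benzonase, 748 bp under Cyanase and 918 bp under DNase I, in a region of 37.3% GC. Cps1, which begins the urea cycle, had 809, 789 and 876 bp. At G6pc, the last enzyme of glucose release, the values were 982, 982 and 1035 bp. Pck1, an early enzyme of gluconeogenesis, went the other way, with 1498, 1439 and 1339 bp in a region of 52.2% GC. Apoa4, an apolipoprotein, showed the widest gap of these, with 978, 997 and 447 bp at 55.3% GC.

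Transcription factor genes of the liver were divided by the width limit. Of 42 listed, 18 (42.9%, interval 29.1 to 57.8) were at members, close to the background, and 23 were in wide regions of all 3 nucleases, so that 97.6% had all 3 nucleases against 50.5% of all genes. The members included Hnf4a, Nr1h4 (the bile acid receptor), Rxra, Prox1 and Srebf1. Foxa1, Foxa2, Foxa3, Cebpa and Cebpb were in the wide regions, and Creb3l3 had no hotspot. Circadian clock genes and immediate early genes, which answer signals within minutes, were split likewise. Of 16 clock genes, 8 were at members (among them Arntl, Per1, Per2 and Nr1d1) and 7 in wide regions. Of 25 immediate early genes, 10 were at members (among them Fos, Junb and Klf2) and 13 in wide regions. Since the width limit is part of the rule, this division is a description.

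Genes of other cell types and tissues were at members in shares from 0% to one near the background of 41.9%. None of 21 Kupffer cell and leukocyte genes was, and the interval of that share reached 15.5%. Of these genes 18 were low in CpG and 3 intermediate, classes in which 9.47% and 24.5% of all genes had a member region, and the interval of 0 of 18 reached 17.6%, so it holds the share of all low-CpG genes. Of these genes 8 had DNase I hotspots alone, among them Cd68, Csf1r, Marco and Ptprc, 2 (Clec4f and Emr1) had DNase I and 1 other nuclease, 2 (S100a8 and Spi1) had Benzonase and Cyanase, and 9 had no hotspot. Over all genes these patterns made up 1.18%, 0.673%, 8.11% and 36.1% in the same order. Among low-CpG genes, at the most upstream TSS, 2.44% had DNase I alone and 81.1% had no hotspot. Of 18 endothelial genes, 7 were at members (38.9%, interval 20.3 to 61.4), among them Kdr, Flt1, Tek and Tie1, which is near the background. Another 6, among them Cdh5 and Eng, had Benzonase and Cyanase without DNase I, against 8.11% of all genes. Of 20 stellate cell and bile duct genes, Pdgfra and Hgf were at members and 3, among them Sox9, were in wide regions. Of 55 genes of other differentiated tissues, 47 had no hotspot, and the 1 at a member was Ins2, an insulin gene, where the nucleases covered 774, 705 and 655 bp. Of these 55 genes 31 were low in CpG, and the interval of 0 of 31 at the most upstream TSS holds the 9.47% of all low-CpG genes.

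Developmental regulators had mostly high-CpG promoters and few members. Of 58 transcription factor genes of development, 7 were at members (12.1%, interval 5.97 to 22.9), among them Pax6, Sox21, Lhx2 and Dlx1, below the background of 41.9%. The most upstream TSS was high in CpG at 44 of the 58, and 3 of these 44 had a member region there (6.82%, interval 2.35 to 18.2), against 60.3% of all such genes. Benzonase and Cyanase without DNase I marked 20 others and 23 had no hotspot. Over all genes these patterns made up 8.11% and 36.1%, and over high-CpG genes, at the most upstream TSS, 11.9% and 9.08%. Of 39 Hox genes, which set position along the body axis, 6 were at members (among them Hoxa3, Hoxa5, Hoxd3 and Hoxd4) and 20 had no hotspot. Hoxd3 and Hoxd4 shared 1 member region, so they are not separate observations. With that region counted for both genes, the median cover at the Hox members was 897 bp for Benzonase, 650.5 bp for Cyanase and 559 bp for DNase I. DNase I covered the most bases at 2 of the 6 genes and the fewest at 3.

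Most members reached the TSSs of 1 gene. TSSs of 2 or more protein-coding genes were within reach of 11.2% of the members, and in 8.55% (interval 7.99 to 9.14) they formed a divergent pair, 2 genes transcribed away from each other with start sites within 1 kb. The distance between the start sites of such pairs had a median of 117 bp (quartiles 63 and 230 bp). Divergent pairs were present at 10.5% of the high-CpG members, 28 of 933 intermediate ones and 0.664% of the low-CpG ones. They were present at 2.58% of the promoter regions without DNase I hotspots and at 1.84% of those of DNase I alone. Both of these sets were narrower than the members, as given above. Members with a divergent pair had a median width of 1362.5 bp and those without one 1214 bp. The part of width in these shares was not tested. Counted by gene, 17.2% of the genes at members had a divergent partner, against 9.73% of all genes and 1.06% of the genes without a hotspot.

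In the gene lists, divergent pairs were found at 16 of 57 respiratory chain members and 13 of 69 ribosomal protein members. Of these members 57 and 67 were high in CpG, a class with such pairs at 10.5% of all its members. Divergent pairs were found at 1 of 55 hepatocyte enzyme members and 0 of 53 plasma protein members. Of these, 38 and 39 were low in CpG, a class with such pairs at 0.664% of its members. The part of CpG class in these counts was not tested. A TSS of an annotated noncoding RNA gene lay inside 5.02% of the members. It was on the strand opposite to the nearest protein-coding gene in 4.88% of the members and on the same strand in 0.133%. Members with TSSs of 3 annotated genes included the region shared by Srp54a, Srp54b and 2700097O09Rik. Srp54a and Srp54b are close copies, so tags that align to both would have been lost or split.

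Some genes had several member regions. Among the 8980 genes, 909 (10.1%) had 2 or more, and the most were 5, at Tbcel and at Zbtb20, a transcription factor gene of hepatocytes with 11 annotated start sites. The 5 regions of Zbtb20 were all low or intermediate in CpG, from 671 to 1866 bp wide. DNase I covered the most bases in 3 of them, with 1296, 671 and 731 bp. Apoc2, an apolipoprotein gene that activates lipoprotein lipase, had 4 member regions, all low in CpG. In the region that also reached Apoc4, DNase I covered 1290 bp, Benzonase 831 bp and Cyanase 984 bp.

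Short motifs were counted in the 250 bases before to 50 bases after the TSS, on both strands and with overlaps between motifs allowed. Among the general promoter motifs, the TATA box was searched as TATAAA and the GC box of Sp1 factors as GGGCGG. The CCAAT box, bound by NF-Y, was searched by its 5 letters. For factors of broadly expressed genes, the ETS site was written CCGGAAG, the site of NRF1 was taken to be GCATGCG, and that of YY1 was read as AAGATGG. The CRE of cyclic AMP signalling was TGACGTCA, the E-box of clock and growth factors was CACGTG, and the Staf site of Zfp143 was ACTACAA. The AP-1 site of Fos and Jun was TGAGTCA. For liver factors, FOXA was searched as TGTTTAC, HNF4 by part of its site as CAAAGTCC, HNF1 by part of its site as GTTAATNAT, and C/EBP as TTGCNNAA. A match says that the letters are present and not that a factor binds.

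The ETS site, bound by a large family of factors of growth and housekeeping genes, was more frequent in members than in the promoters compared with them. It was present in 19.3% of the members (interval 18.5 to 20.2), in 11.1% of all protein-coding promoters and in 6.45% of the promoter regions with Benzonase and Cyanase and no DNase I. High-CpG promoters with the TSS inside the region gave the same order, with 23.8% of 6634 members (interval 22.8 to 24.8) against 7.11% of 1420 regions without DNase I (interval 5.89 to 8.57). In the same comparison the CCAAT box was present in 39.8% against 24.9%, the YY1 site in 9.07% against 4.30%, the NRF1 site in 8.20% against 4.51% and the Staf site in 4.55% against 1.20%. The GC box went the other way, with 73.2% against 79.3%. GC content differed between these promoters too, and its part in the counts was not tested.

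Among low-CpG members several sites of liver factors were more frequent than in the low-CpG promoters of all genes. Members were classed by the TSS nearest to their centre, and all genes by their most upstream TSS. The sets therefore overlap only in part, and 616 of the 6508 low-CpG genes had a member region at that TSS. How far the choice of TSS moves these shares was not tested. The HNF1 site was present in 3.03% of 1055 low-CpG members (interval 2.16 to 4.25), against 1.43% of all low-CpG promoters (interval 1.17 to 1.75) and 0.114% of high-CpG members. The HNF4 site was present in 4.55% against 1.83% of all low-CpG promoters, the FOXA site in 6.07% against 4.55%, and the C/EBP site in 18.7% against 15.3%. The TATA box was less frequent in low-CpG members (14.7%) than in all low-CpG promoters (25.2%). Counted on the strand of the gene, 20 to 40 bases before the TSS, TATAAA was present in 2.84% of the low-CpG members and 5.21% of all low-CpG promoters. The intervals of the FOXA shares overlap, so that difference is within counting error.

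Some of these motifs differed between the gene lists. In the member promoters of plasma protein genes, 20 of 62 start sites had a C/EBP site (32.3%, interval 22.0 to 44.6), 5 had an HNF1 site and 0 had an ETS site, a count that allows a share of up to 5.83% by its interval, which holds the 2.27% of low-CpG members. The HNF4 site was also present at 0 of the 62, so its interval likewise reaches 5.83% and holds the 4.55% of low-CpG members. It was present at 1 of 71 start sites of ribosomal protein genes. In those of ribosomal protein genes, 24 of 71 had an ETS site (33.8%, interval 23.9 to 45.4), 13 had a YY1 site (18.3%) and 0 had an HNF1 site. Several start sites of a gene can each be counted, so these are not separate genes. The lists also differ in CpG class, and its part in these counts was not tested. The ETS interval of the ribosomal protein genes begins close to the share given above for high-CpG members with the TSS inside the region. The C/EBP interval of the plasma protein genes lies above the share given for low-CpG members.

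At the limits of the rule the members did not stand apart from their neighbours. There were 348 members of 1900 to 1999 bp and 308 regions of all 3 nucleases from 2000 to 2099 bp, and 143 members were 901 to 1000 bp from a TSS while 139 regions were 1001 to 1100 bp away. Just inside the width limit, Zfp367 (1999 bp) had 1999 bp under Benzonase, 1936 bp under Cyanase and 853 bp under DNase I, and Hdac7, a histone deacetylase (1999 bp), had 1939, 1804 and 923 bp. Just outside it, Slc44a1, a choline transporter (2000 bp), had 1985, 1954 and 869 bp, and Nr1d2, a repressor of the clock (2000 bp), had 1976, 1955 and 1982 bp.

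The narrowest member, at the histone gene Hist1h4n, was 390 bp wide and was covered over 388, 388 and 390 bp. Histone genes occur in near-identical copies, so tags there may be placed uncertainly. The longest core, 1912 bp of a region of 1935 bp, was at Pafah2, a phospholipase, and the next was 1902 bp of 1964 bp at Nr2c2, a nuclear receptor. In the 5 members with the longest cores, which also included Bcl2l1, Etfdh and Cyb5r3, the cover of each nuclease lay between 1852 and 1938 bp.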

How the data were processed

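The data are 3 lists of hotspots in mouse liver, 1 per nuclease. The authors aligned tags to mm9 with Eland or Bowtie (versions not given in the sources used here), combined the tags per nuclease, and kept hotspots with a false discovery rate of 0% after adjusting for input. The study also names a tag density threshold at the mode. Each list used here holds more hotspots than the study reports for that nuclease, so the calls are not identical to its published set. The deposited values are the start and end of each hotspot in bp, with no score or tag count, and 0 columns of other samples were present.

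Hotspots on chromosomes 1 to 19 were merged with Python 3.11.15 and numpy 2.4.6 where they overlapped by at least 1 bp, and TSSs of protein-coding transcripts were taken from GENCODE M1. Sequence was read from the mm9 assembly with pysam 0.24.0, Wilson intervals came from scipy 1.17.1, and plots from matplotlib 3.10.9. A promoter sequence table of another build was not used here. Counting scripts were tested on simulated data.

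Named genes came from 17 gene lists, from Tat and Marveld3, and from the regions at the limits of the rule, narrowest, with the longest cores, with most genes, or belonging to the genes with most regions. Printed sequences belong to early members of 6 lists. Members and lists were chosen with earlier results of these data known. The annotation names Tf as Trf, C5 as Hc, Ciart as Gm129 and Spi1 as Sfpi1. The alternatives changed how hotspots were joined, the width limit, the TSS window and transcripts, and the definitions of CpG class, GC content and divergence.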

Additional observations from a re-analysis of the deposited data

Results flagged for a closer look

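Chromosome X was outside the rule and outside every count above. There, 277 regions met the rest of the rule, and 30.7% of the 932 protein-coding genes had such a region (interval 27.8 to 33.7), against 41.9% on chromosomes 1 to 19. The lists hold no control samples. No difference between chromosomes was tested.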

How the results depend on the processing

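Of 76 values under 13 alternatives, 37 moved by less than the interval or spread of the value reported and 30 moved by more. The other 9 are counts of members, which have no interval, and they ran from 6589 to 10887, within 1.5 times the count reported. Median width and mean GC content were judged by the SD over regions, a band that a median or mean can hardly leave. Their staying within it says little about stability. Shares were judged by their narrower intervals, and every value that moved was a share, except the GC content of the central 150 bp. Joining hotspots only at an overlap of 50% of both gave 38.3% of genes with a member, 76.9% of members at high-CpG promoters and 85.6% with the TSS inside all 3 nucleases, and joining also within 150 bp gave 39.9% of genes and 85.7% with the TSS inside. Without the narrowest hotspots of each list (below its lower quartile of width) the results were 38.9%, 79.6% and 86.9% for the same 3 values, 15.7% of members with most bases under DNase I and 9.14% with a divergent pair. With no width limit 50.5% of genes and 79.7% high-CpG members were found, and with a limit of 1500 bp 30.6% and 73.7%, with 82.7% for the TSS inside and 7.41% divergent. A TSS window of 500 bp gave 40.8% of genes, 80.2% high CpG, 90.7% with the TSS inside and 14.2% with most bases under DNase I. A window of 2 kb upstream alone gave 42.6% of genes, 82.4% with the TSS inside and 17.6% for DNase I. TSSs of every transcript gave 43.1% of genes, 73.2% high CpG, 81.5% with the TSS inside and 18.4% for DNase I. CpG islands overlapped 73.3% of members, the central 150 bp held 63.1% GC, and any TSS lay inside all 3 nucleases in 85.4%. The cause of these shifts was not tested beyond what each alternative changes.

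No paired analysis was possible because each list pools its samples, and no replicate was left out for the same reason. The lists hold no tag counts, so depth limits every extent given here in a way that cannot be measured from them.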
